A study of Homo sapiens with 15 samples.

Results

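HOX genes encode homeodomain transcription factors that set position along the body axis in the embryo. In human they lie in 4 clusters, HOXA to HOXD, in which low-numbered genes sit at the end that opens first and responds to retinoic acid, and Polycomb complexes keep the remaining genes silent in many adult cells. Long noncoding RNAs are read from the opposite strand inside the clusters, among them HOXD-AS1, which is also known as HAGLR. HOX members were taken as every row named as a HOX gene or a HOX antisense transcript (AS), which gave 52 of 57773 listed genes, namely 38 HOX genes and 14 antisense transcripts. HOXC4 was listed under a pair of suffixed names outside this pattern and was not counted.

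The cells were HepG2, a human hepatocellular carcinoma line. The groups were cells kept for 72 h with tris(2-chloroisopropyl) phosphate (TCIPP) at 25 or 2.5 µM, with TCEP, or tris(2-chloroethyl) phosphate, at 250 or 25 µM, or with the solvent dimethyl sulfoxide (DMSO) at 0.1%, which serves as the solvent control. Both are chlorinated organophosphate flame retardants, and they differ in that every chloroalkyl arm of TCIPP bears an added methyl group. Each of the 5 groups had 3 libraries of poly-A RNA, from cultures that the labels describe as seeded, treated and extracted separately.

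The libraries held 5.35 to 26.8 M exon reads. The 15 liver and hepatoma markers were all at a median of 1 CPM or more (a gene's exon reads scaled to a fixed total of exon reads per library) and summed to 55400 to 65950 CPM. Of 9 fibroblast and stellate markers, COL1A2, DCN, LUM and THY1 were at 0 in all 15 libraries, while COL1A1 and PDGFRB reached a median of 1 CPM. Of 6 immune markers, 3 reached that median, namely LYZ at 3975 to 5372 CPM, CD68 at 21.9 to 48.7 CPM and CD14 at 1.01 to 2.43 CPM, while PTPRC, which marks blood cells in general, stayed at or below 0.127 CPM. Of 4 cholangiocyte markers, KRT19 stood at 128 to 221 CPM and SOX9 at 186 to 245 CPM, and CFTR was at 0 in all 15 libraries. Endothelial markers summed to 0.998 to 2.65 CPM. A count of 3 reads, used as the floor for a member at 0, was worth 0.112 to 0.560 CPM in a library.

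Most HOX exon reads in these cells came from the HOXD1 end of the HOXD cluster. The 52 members together took 25930 exon reads, which is 0.0152% of all exon reads. HOXD1 and HOXD-AS1 took 23488 of these reads, or 90.6%. By cluster, HOXD held 90.7% of the HOX exon reads, HOXA 8.80%, HOXC 0.459% and HOXB 0.0154%. Intron reads are outside these shares. They numbered 4443 for HOXA3 and 772 for HOXA-AS2, with 0 unique in each, and 1852 for HOXD-AS1 and 134 for HOXD1. Among the 52 members, 26 had at least 1 exon read, 7 had 100 or more, and 26 had 0.

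**Figure D1:**
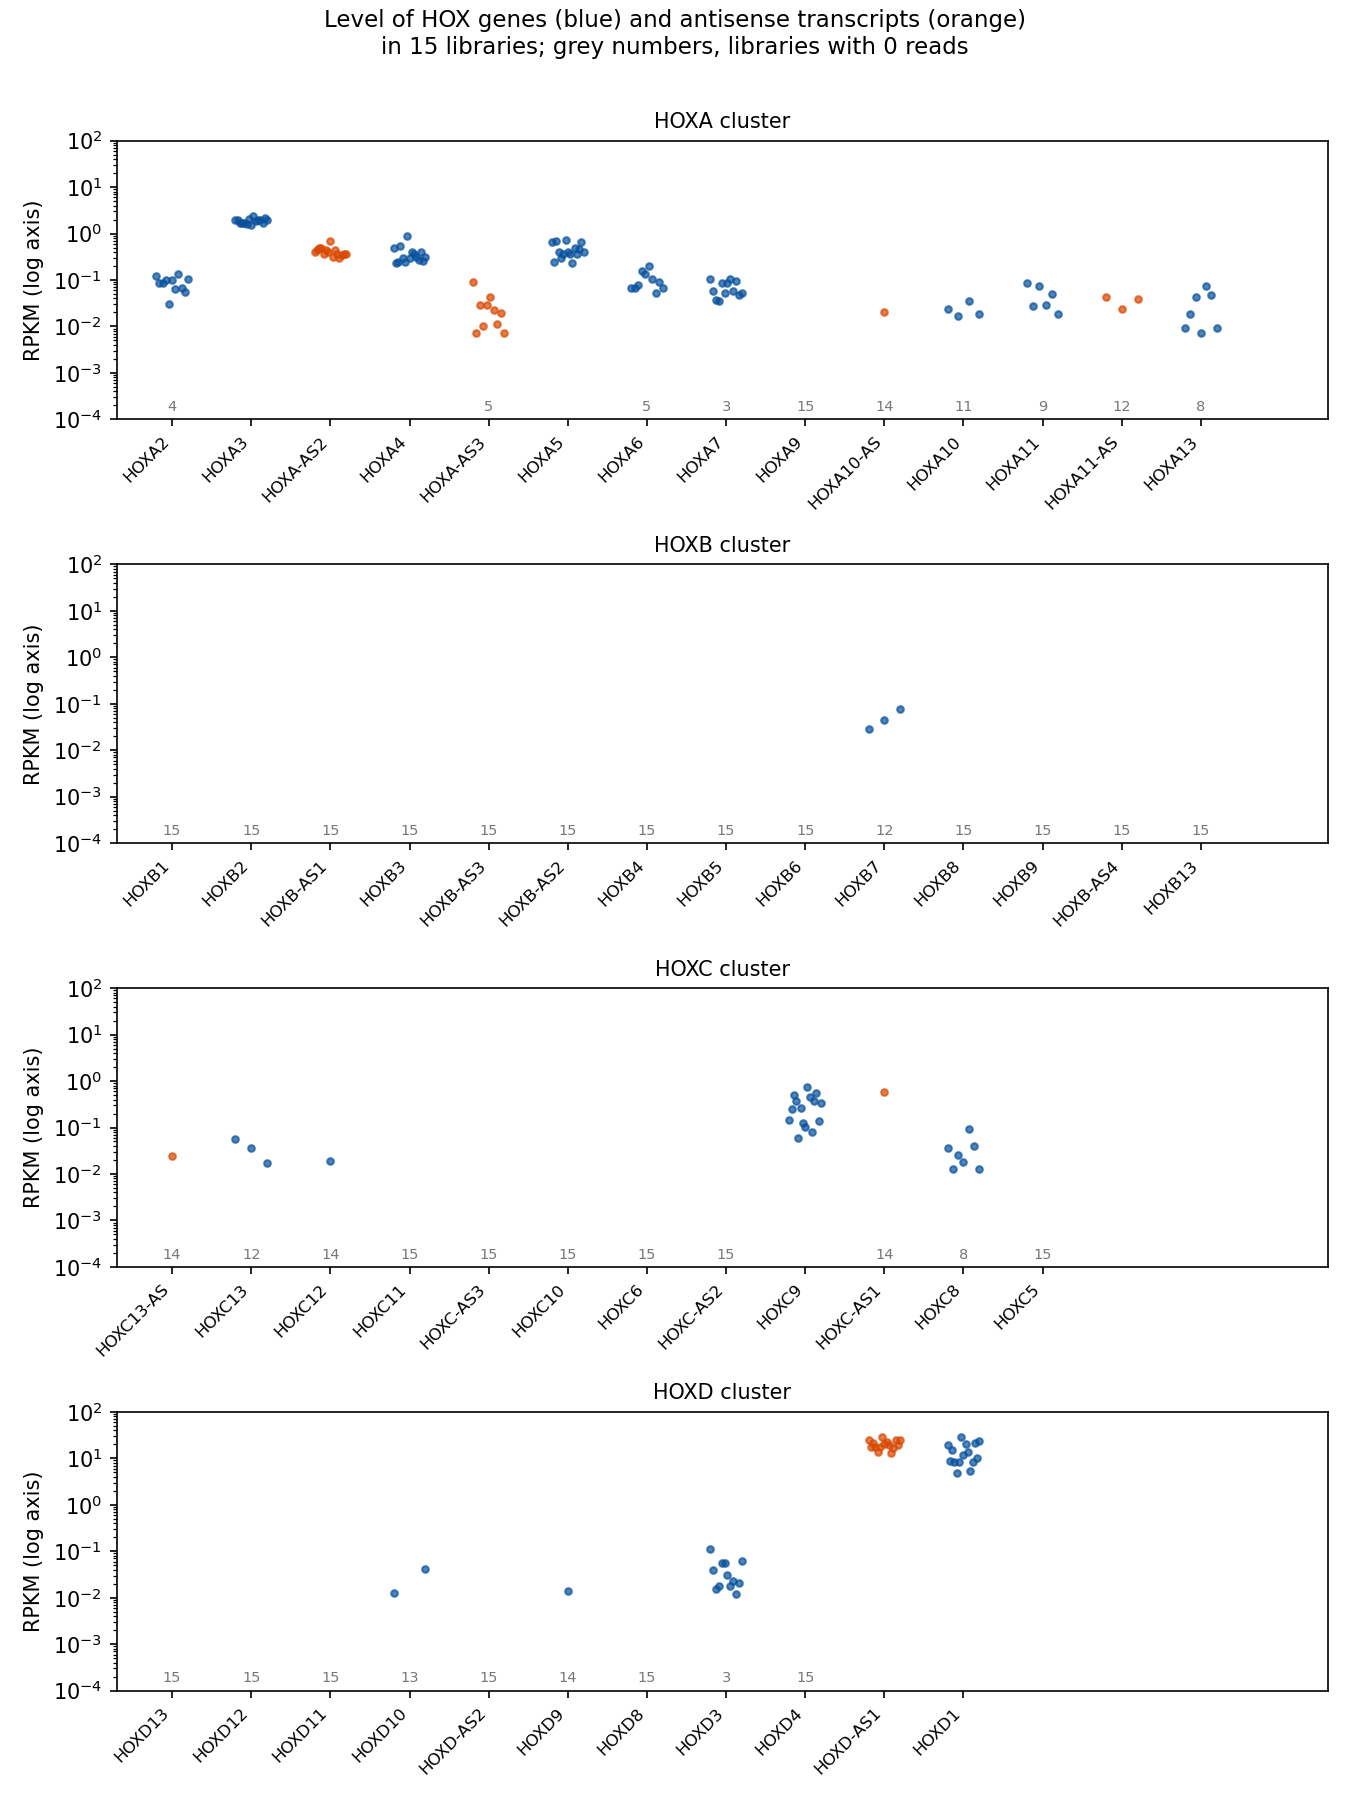
Level of the members in each library, in RPKM, exon reads per exon length and sequencing depth (log axis), with 1 panel per cluster and members in chromosomal order. Points are libraries above 0, blue for HOX genes and orange for antisense transcripts, and the grey number counts the libraries at 0. HOXD-AS1 and HOXD1 stand at 4.86 to 29.0 RPKM, HOXA3 at 1.54 to 2.41, and the HOXB panel holds points for HOXB7 alone.

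Because HOXD1 and HOXD-AS1 carry most of the exon reads and overlap at their 5′ ends, start regions of both are shown. In the deposited hg19 coordinates HOXD1 (ENSG00000128645) spans chr2:177053307-177055688 on the plus strand and HOXD-AS1 (ENSG00000224189) spans chr2:177037923-177053686 on the minus strand, so that the gene bodies share 380 bases. RefSeq gives windows of 250 bases before to 50 after each start (GRCh38.p14). For HOXD1 this is chr2:176188418-176188717 on the plus strand, and of the 4 windows of HAGLR the one at chr2:176188523-176188822 on the minus strand overlaps it most, by 195 bases, with start sites 96 bases apart and pointing away from each other. A second HAGLR window overlaps it by 102 bases and the other 2 by 0. The deposited start of HOXD-AS1 is that of one of these last 2, at GRCh37 177053637 to 177053936, which holds 0 copies of the hexamer described next. The HAGLR window shown was thus chosen for its overlap and is not at the deposited start. The HOXD1 window and the HAGLR window shown matched GRCh37 chromosome 2 exactly once, at 177053146 to 177053445 and at 177053251 to 177053550. Each is read 5′ to 3′ on its own strand, and the capitals mark the hexamer CACGTG, an E-box that reads the same on both strands.
HOXD1: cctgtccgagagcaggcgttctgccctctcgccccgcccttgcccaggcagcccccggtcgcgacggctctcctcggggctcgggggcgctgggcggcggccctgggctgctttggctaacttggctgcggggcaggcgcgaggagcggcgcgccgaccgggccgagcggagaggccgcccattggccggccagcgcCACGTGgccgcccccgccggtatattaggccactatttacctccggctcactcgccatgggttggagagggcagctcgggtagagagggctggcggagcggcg
HAGLR: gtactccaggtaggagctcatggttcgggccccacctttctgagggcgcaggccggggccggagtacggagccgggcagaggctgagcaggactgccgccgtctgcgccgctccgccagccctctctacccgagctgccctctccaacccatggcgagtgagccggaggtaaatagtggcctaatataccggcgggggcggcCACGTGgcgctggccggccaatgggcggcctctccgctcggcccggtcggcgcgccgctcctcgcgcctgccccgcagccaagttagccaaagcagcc
The same CACGTG lies between these 2 RefSeq start sites, beginning 53 bases before that of HOXD1 and 48 bases before this one of the 4 of HAGLR. In the deposited coordinates HOXD1 starts earlier than in RefSeq, at 177053307. This hexamer thus lies inside the deposited spans of both HOXD1 and HOXD-AS1, and not before the deposited start of either. Another CACGTG lies in the HAGLR window at chr2:176178080-176178379, which does not overlap that of HOXD1, beginning 17 bases before its own start site. Of 35116 RefSeq windows of this length, 7.26% hold CACGTG on either strand. The HOXD1 window is 74.3% G and C with 36 CpG dinucleotides, and the HAGLR window 71.0% with 31, against medians of 58.7% and 14 over all windows. GGGCGG, the core of the GC box, was found 4 times in the HOXD1 window and 2 times in the HAGLR window on either strand, and 45% of all windows hold it. TATAAA (11.5% of all windows), AGGTCA, the nuclear receptor half-site (13.8%), and TGATNNAT, bound by HOX proteins with PBX partners (7.40%), were not found in either window.

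HOXD1, the most 3′ gene of its cluster, had 64.0, 26.9 and 46.6 CPM in the 3 libraries with TCIPP at 25 µM and 30.2, 11.8 and 18.2 CPM with TCIPP at 2.5 µM. It had 42.5, 19.2 and 33.3 CPM with TCEP at 250 µM, 18.2, 10.7 and 18.4 CPM with TCEP at 25 µM, and 47.05, 23.1 and 52.4 CPM with DMSO. The libraries of both lower concentrations were mostly low, and the library numbered 2 was the lowest in each of the 5 groups. HOXD-AS1, the antisense RNA, had 153.9, 106.3 and 121.1 CPM with TCIPP at 25 µM and 104.2, 67.9 and 87.5 CPM with TCIPP at 2.5 µM. It had 134.1, 91.4 and 115.4 CPM with TCEP at 250 µM, 92.9, 71.5 and 91.5 CPM with TCEP at 25 µM, and 129.3, 104.0 and 130.3 CPM with DMSO. The antisense RNA followed the same order of group means with smaller fold differences, and its library numbered 2 was again the lowest in all 5 groups. Over all 12567 tested genes, 3.68% had that library lowest in every group.

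**Figure D2:**
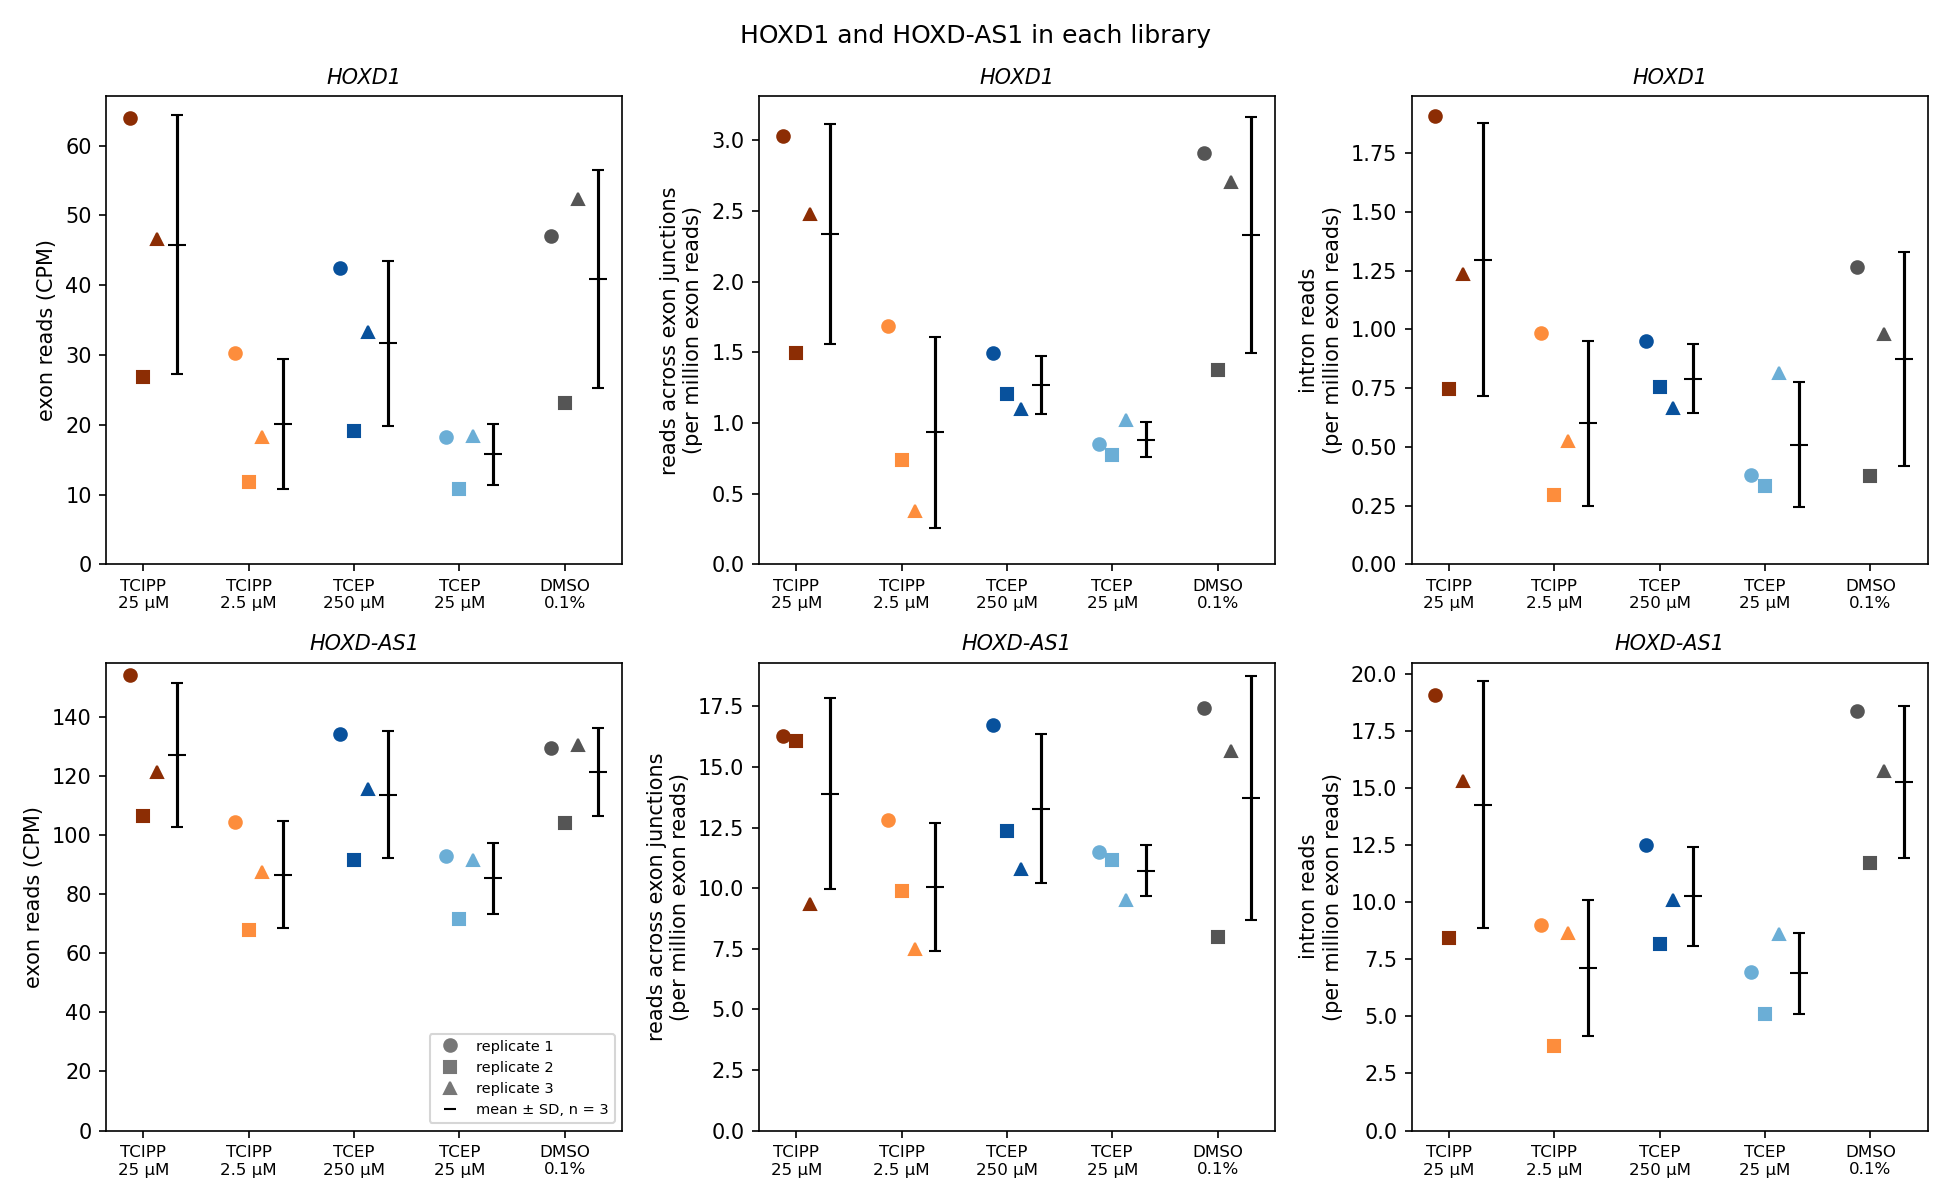
Exon reads, reads across exon junctions and intron reads of HOXD1 and HOXD-AS1 in each library, all scaled to the library's exon reads as CPM, with the mean and SD of 3 libraries beside the points of each group. Exon reads of HOXD1 lie at 10.7 to 30.2 CPM in the 6 libraries of the lower concentrations and at 19.2 to 64.0 CPM in the other 9.

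At the concentration the compounds share, 25 µM, HOXD1 averaged 45.8 ± 18.6 CPM with TCIPP and 15.8 ± 4.38 CPM with TCEP (SD, n = 3 each), and every TCIPP library was above every TCEP library. HOXD-AS1 averaged 127 ± 24.4 CPM with TCIPP and 85.3 ± 12 CPM with TCEP, also with no overlap. This is the only pair of the related compounds at a matched concentration, so 1 pair was compared. The log2 fold change of HOXD1 was 1.54 ± 0.362 (SE, 95% interval 0.77 to 2.30) with an adjusted p of 0.0771 (edgeR quasi-likelihood test, Benjamini-Hochberg over all genes), and that of HOXD-AS1 was 0.57 ± 0.164 (0.22 to 0.92) with an adjusted p of 0.106. Neither passed the threshold of 0.05, and 0 of the 5 tested members was called, where 0.0398% of all tested genes were. HOXD1 passed without TCIPP 25 µM replicate 2 (log2 fold change 1.78, adjusted p = 0.0458), and DESeq2 called both (adjusted p = 0.0398 for HOXD1 and 0.0352 for HOXD-AS1). Those fits also called more of all tested genes, 208 of 12728 and 334 of 12567. Libraries with the same number deviated together between these treated groups, so the fit with the replicate number as a block is given as well. With the block, HOXD1 was higher with TCIPP by a log2 fold change of 1.51 ± 0.139 (1.21 to 1.80, adjusted p = 2.62e-05) and HOXD-AS1 by 0.56 ± 0.0682 (0.41 to 0.70, adjusted p = 1.93e-04). That fit called 2 of the 5 tested members, both higher with TCIPP, where it called 8.75% of all tested genes. It covered all 15 libraries, although the numbers did not pass the pairing check with DMSO. On the 12 treated libraries alone the block called the same 2 members, among 2096 of 12510 genes. Library by library, HOXD1 was 3.52, 2.51 and 2.53 times as high with TCIPP as with TCEP in the libraries numbered 1, 2 and 3, and HOXD-AS1 was 1.66, 1.49 and 1.33 times as high. The groups did not overlap in 2 of the 5 tested members, where they did not overlap in 20.1% of all tested genes.

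Between the concentrations of TCIPP, HOXD1 averaged 45.8 ± 18.6 CPM at 25 µM and 20.1 ± 9.35 CPM at 2.5 µM (SD, n = 3 each), and the groups overlapped. HOXD-AS1 averaged 127 ± 24.4 CPM at 25 µM and 86.5 ± 18.2 CPM at 2.5 µM, with the lowest library at 25 µM (106.3 CPM) just above the highest at 2.5 µM (104.2 CPM). Without the block edgeR called 0 of the 5 members and 0% of all tested genes, with a log2 fold change of 1.23 ± 0.359 for HOXD1 (adjusted p = 0.241) and of 0.55 ± 0.165 for HOXD-AS1 (adjusted p = 0.245). At an unadjusted p under 0.05 there were 1358 genes, and DESeq2 called 62. With the block both were higher at 25 µM, HOXD1 by 1.24 ± 0.137 (adjusted p = 1.17e-04) and HOXD-AS1 by 0.55 ± 0.0687 (adjusted p = 3.31e-04), so that 2 of the 5 tested members were called where 3.85% of all tested genes were. The same-number ratios were 2.12, 2.28 and 2.56 for HOXD1 and 1.48, 1.57 and 1.39 for HOXD-AS1. The groups did not overlap in 1 of the 5 members, HOXD-AS1, and in 12.8% of all tested genes.

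Between the concentrations of TCEP, HOXD1 averaged 31.7 ± 11.8 CPM at 250 µM and 15.8 ± 4.38 CPM at 25 µM (SD, n = 3 each), with every library at 250 µM above those at 25 µM. HOXD-AS1 averaged 113.6 ± 21.4 CPM at 250 µM and 85.3 ± 12 CPM at 25 µM, and here the groups overlapped. Without the block edgeR called 0 of the 5 members and 0% of all tested genes (900 at an unadjusted p under 0.05, and 14 called by DESeq2). The log2 fold change was then 0.98 ± 0.365 for HOXD1 (adjusted p = 0.661) and 0.39 ± 0.163 for HOXD-AS1 (adjusted p = 0.680). With the block both were higher at 250 µM, HOXD1 by 0.96 ± 0.140 (adjusted p = 0.00334) and HOXD-AS1 by 0.39 ± 0.0676 (adjusted p = 0.00929), so that 2 of the 5 tested members were called where 1.47% of all tested genes were. These blocked calls depended on which libraries were kept. Leaving out the libraries numbered 2 in every group ended both (adjusted p = 0.0570 for HOXD1 and 0.0815 for HOXD-AS1). Leaving out those numbered 1 or 3 ended that of HOXD-AS1 (adjusted p = 0.157 and 0.0645), while HOXD1 was still called. Without the numbers 1, 2 and 3 in turn, 16 of 12633, 7 of 12684 and 47 of 12447 genes were called. The same-number ratios were 2.34, 1.79 and 1.81 for HOXD1 and 1.44, 1.28 and 1.26 for HOXD-AS1. The groups did not overlap in 1 of the 5 members, HOXD1, and in 15.5% of all tested genes.

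Against DMSO, 0 of the 5 tested members passed with either compound at either concentration. The lower concentrations showed the largest negative values. With TCEP at 25 µM HOXD1 averaged 15.8 ± 4.38 CPM, against 40.8 ± 15.6 CPM with DMSO, a log2 fold change of -1.38 ± 0.357 (95% interval -2.13 to -0.62, adjusted p = 0.130). HOXD-AS1 averaged 85.3 ± 12 CPM, against 121 ± 14.9 CPM with DMSO, a log2 fold change of -0.50 ± 0.162 (adjusted p = 0.176). In both members every TCEP library was below every DMSO library, which held for 2 of the 5 tested members and, in either direction, for 22.6% of all tested genes. With TCIPP at 2.5 µM the log2 fold change was -1.07 ± 0.354 for HOXD1 (-1.82 to -0.32, adjusted p = 0.170) and -0.49 ± 0.163 for HOXD-AS1 (adjusted p = 0.171), and the groups overlapped in both. The fit with the replicate block called 2 of the 5 members, both lower, in each of these 2 comparisons, where it called 8.25% of all tested genes with TCEP at 25 µM and 7.49% with TCIPP at 2.5 µM, but same-numbered libraries did not meet the pairing check with DMSO. Without the block but with the libraries numbered 2 left out, HOXD1 passed with TCEP at 25 µM (-1.46, adjusted p = 0.0444) and with TCIPP at 2.5 µM (-1.14, adjusted p = 0.0441). It was then 1 of 6 tested members, and 30 and 122 of all 12684 tested genes were called.

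At the higher concentrations the values lay nearer to the solvent. With TCIPP at 25 µM the log2 fold change against DMSO was 0.16 ± 0.335 for HOXD1 (-0.55 to 0.87, adjusted p = 0.979) and 0.07 ± 0.162 for HOXD-AS1 (-0.27 to 0.41, adjusted p = 0.984). With TCEP at 250 µM it was -0.40 ± 0.339 for HOXD1 (-1.11 to 0.32, adjusted p = 0.987) and -0.11 ± 0.161 for HOXD-AS1 (-0.45 to 0.23, adjusted p = 0.994). The sign for HOXD1 with TCIPP at 25 µM was not stable, since it was -0.16 without TCIPP 25 µM replicate 1 and -0.11 without DMSO replicate 2. These 4 comparisons share the same 3 DMSO libraries. The fit called 0.00796% of all tested genes with TCIPP at 25 µM, 0.0955% with TCIPP at 2.5 µM, and 0% with TCEP at 250 µM and at 25 µM, where 653 and 1915 genes had an unadjusted p under 0.05 and DESeq2 called 14 and 138. The libraries of the groups did not overlap in 0 of the 5 members with TCIPP at 25 µM (9.2% of all tested genes), 0 with TCIPP at 2.5 µM (16.8%) and 1, HOXA-AS2, with TCEP at 250 µM (11.2%).

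**Figure D3:**
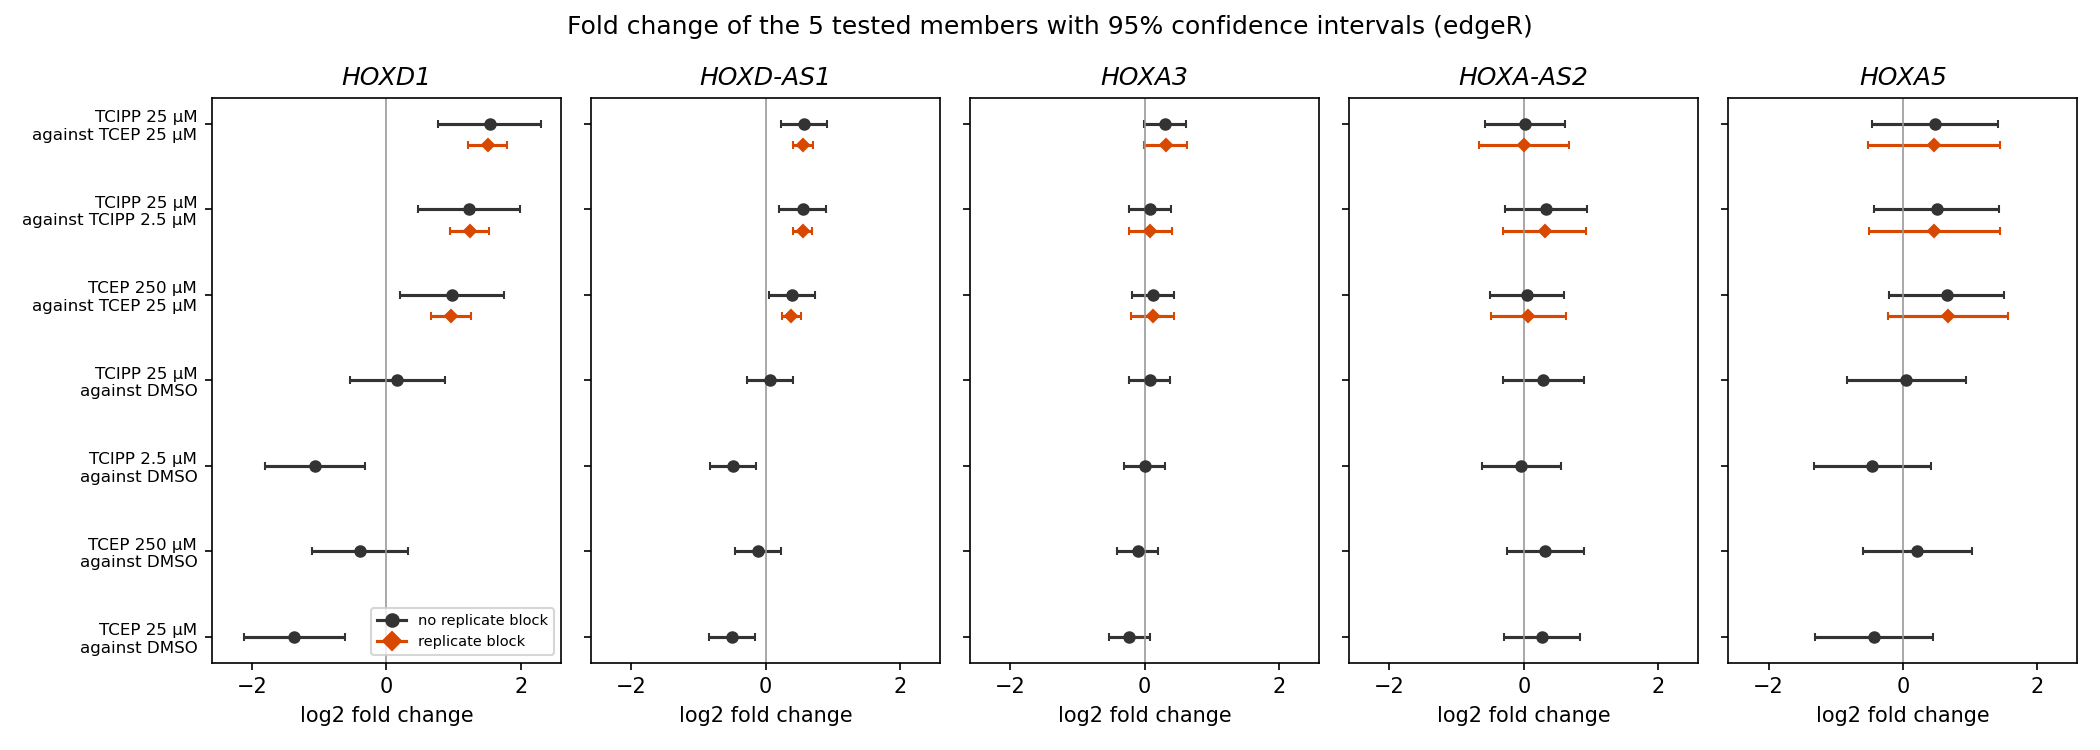
Log2 fold changes of the 5 tested members in the 7 comparisons with 95% confidence intervals, from edgeR without the replicate block (circles) and, between treated groups, with it (diamonds). The intervals of HOXD1 and HOXD-AS1 lie above 0 in the 3 comparisons between treated groups in both fits, and below 0 for both lower concentrations against DMSO.

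Junction and intron reads of the HOXD pair were set beside the exon reads. Reads across exon junctions fall on exons, so they are not a measure separate from the exon reads. Reads across exon junctions of HOXD1 numbered 27, 8 and 22 with TCIPP at 25 µM and 12, 5 and 10 with TCIPP at 2.5 µM. They numbered 11, 8 and 23 with TCEP at 250 µM, 9, 7 and 15 with TCEP at 25 µM, and 23, 11 and 58 with DMSO. Scaled as CPM, the libraries of TCEP at 25 µM (0.774 to 1.02) lay below all DMSO libraries (1.37 to 2.91) and below all libraries of TCIPP at 25 µM (1.49 to 3.03). Intron reads of HOXD-AS1 averaged 14.3 ± 5.41 with TCIPP at 25 µM, 7.12 ± 2.97 with TCIPP at 2.5 µM, 10.3 ± 2.18 with TCEP at 250 µM, 6.88 ± 1.77 with TCEP at 25 µM and 15.3 ± 3.33 with DMSO, scaled as CPM (SD, n = 3 each). They were lowest in the library numbered 2 in all 5 groups, as the exon reads were. Of the exon reads, 97.6% were unique to 1 place for HOXD1 and 99.6% for HOXD-AS1. The ratio of HOXD1 to HOXD-AS1 in RPKM, a level per length, was 0.840 ± 0.206 with TCIPP at 25 µM, 0.536 ± 0.143 with TCIPP at 2.5 µM, 0.650 ± 0.133 with TCEP at 250 µM, 0.436 ± 0.0674 with TCEP at 25 µM and 0.788 ± 0.227 with DMSO. The sense gene thus stood lower relative to its antisense partner in the groups where both were low. The ranges of the groups overlapped except that TCEP at 25 µM (0.359 to 0.481) lay below DMSO (0.531 to 0.961), TCIPP at 25 µM (0.605 to 0.995) and TCEP at 250 µM (0.501 to 0.759). For such ratios and for junction reads, the share of all genes that separate was not computed. In exon reads, TCEP at 25 µM and DMSO did not overlap in 22.6% of all tested genes.

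Several features of whole libraries differed between the groups along with the HOXD pair. Intron reads made up 8.60% to 9.56% of gene reads with TCIPP at 25 µM, 7.82% to 8.67% with TCIPP at 2.5 µM, 8.31% to 8.76% with TCEP at 250 µM, 8.06% to 8.59% with TCEP at 25 µM and 8.68% to 9.10% with DMSO. Mitochondrial genes took 6.70% to 7.23% of exon reads with TCIPP at 25 µM, 5.68% to 6.37% with TCIPP at 2.5 µM, 6.47% to 6.79% with TCEP at 250 µM, 5.91% to 6.54% with TCEP at 25 µM and 6.27% to 7.68% with DMSO. The 9 fibroblast and stellate markers summed to 17.2 to 34.4 CPM, 13.9 to 20.7 CPM, 18.0 to 27.3 CPM, 12.7 to 18.96 CPM and 19.7 to 24.7 CPM in the same groups in that order, and 2 of the 9, COL1A1 and PDGFRB, reached a median of 1 CPM. PDGFRB made most of the sum, at 10.2 to 33.6 CPM. The libraries numbered 2 were the shallowest of their group in 4 of the 5 groups, DMSO being the exception, and held 5.35 to 9.05 M exon reads, against 7.11 to 10.5 M for those numbered 1 and 8.89 to 26.8 M for those numbered 3. The immune markers summed to 4556 ± 155 CPM with TCIPP at 25 µM, 4223 ± 185 with TCIPP at 2.5 µM, 4730 ± 96.0 with TCEP at 250 µM, 4454 ± 294 with TCEP at 25 µM and 4986 ± 670 with DMSO (SD, n = 3 each). The endothelial sum was higher on average in the groups with low HOXD values, at 2.15 with TCIPP at 2.5 µM and 2.11 with TCEP at 25 µM, and at 1.67 with TCIPP at 25 µM, 1.31 with TCEP at 250 µM and 1.49 with DMSO. The sum of the liver and hepatoma markers, at 55400 to 59390 CPM in the libraries numbered 2, was lowest there in all 5 groups, as the HOXD pair was. The part of these features in the HOXD result was not tested.

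The genes next to the HOXD pair were not called. Within 300 kb of HOXD1, KIAA1715 and MTX2, which flank the cluster on its other and its near side, were the only other genes that passed the filter. With the block, between TCIPP and TCEP at 25 µM, their log2 fold changes were -0.15 (adjusted p = 0.133) and -0.03 (adjusted p = 0.858). Between the concentrations they were -0.08 and 0.05 for TCIPP (adjusted p = 0.654 and 0.847) and -0.18 and -0.04 for TCEP (adjusted p = 0.160 and 0.911). Whether these differ from the change of the HOXD pair was not tested. HOXD3, the next gene of the cluster with reads, had 34 exon reads over the 15 libraries, HOXD10 had 2 and HOXD9 had 1. HOXD4, HOXD8, HOXD11, HOXD12, HOXD13 and HOXD-AS2 had 0 reads. AC009336.24, a noncoding gene inside HOXD-AS1 (ENSG00000226363), had 2.

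In the HOXA cluster the reads centred on HOXA3 to HOXA5, at levels per length well under those of the HOXD pair. HOXA3, a gene of the anterior group, had 9.65, 7.28 and 11.5 CPM with TCIPP at 25 µM and 8.57, 9.15 and 9.45 CPM with TCIPP at 2.5 µM. It had 9.24, 9.05 and 7.86 CPM with TCEP at 250 µM, 7.87, 7.96 and 7.47 CPM with TCEP at 25 µM, and 7.84, 10.2 and 9.28 CPM with DMSO. The groups overlapped in all 7 comparisons. The smallest p for HOXA3 was between TCIPP and TCEP at 25 µM, with a log2 fold change of 0.31 ± 0.150 (adjusted p = 0.291), followed by -0.23 ± 0.145 (adjusted p = 0.474) for TCEP at 25 µM against DMSO, and this second value was 0.0012 with unique reads. Against DMSO its log2 fold change was -0.11 ± 0.145 with TCEP at 250 µM and 0.07 ± 0.147 with TCIPP at 25 µM (adjusted p = 0.994 and 0.977). Only 49.8% of the exon reads of HOXA3 were unique, and it had 4443 intron reads of which 0 were unique. In the deposited coordinates HOXA3 spans chr7:27145803-27192200 and overlaps 5 other members, HOXA-AS2, HOXA4, HOXA-AS3, HOXA5 and HOXA6, so its reads may belong in part to them. The sources used here do not say if reads were counted by strand. Over the 4 clusters, all 14 antisense transcripts overlap a member on the other strand, and without strand the reads in the shared stretch cannot be told apart.

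HOXA-AS2, a noncoding RNA on the strand opposite HOXA3 and HOXA4, had 2.13, 3.74 and 1.69 CPM with TCIPP at 25 µM and 2.39, 1.92 and 1.64 CPM with TCIPP at 2.5 µM. It had 2.17, 2.41 and 2.67 CPM with TCEP at 250 µM, 2.66, 1.99 and 2.38 CPM with TCEP at 25 µM, and 1.90, 2.00 and 1.96 CPM with DMSO. The 3 DMSO libraries lay close together and the 3 libraries of TCEP at 250 µM were above them. The log2 fold change there was 0.32 ± 0.271 (adjusted p = 0.987), and with TCIPP at 25 µM against DMSO it was 0.29 ± 0.286 (adjusted p = 0.948), which was -0.04 without TCIPP 25 µM replicate 2. Of its reads, 48.1% were unique.

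HOXA5, a gene that follows retinoic acid in many cell types, had 1.35, 0.747 and 0.675 CPM with TCIPP at 25 µM and 0.422, 0.885 and 0.672 CPM with TCIPP at 2.5 µM. It had 1.22, 0.453 and 1.29 CPM with TCEP at 250 µM, 0.759, 0.553 and 0.679 CPM with TCEP at 25 µM, and 0.885, 1.25 and 0.746 CPM with DMSO. These rest on 3 to 27 reads per library, and the groups overlapped throughout. Its smallest p was for TCEP at 250 against 25 µM, with a log2 fold change of 0.65 ± 0.406 (adjusted p = 0.761). It was also among the 3 smallest for TCIPP at 25 against 2.5 µM (0.50 ± 0.441, adjusted p = 0.747) and for TCIPP at 2.5 µM against DMSO (-0.45 ± 0.413, adjusted p = 0.699).

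**Figure D4:**
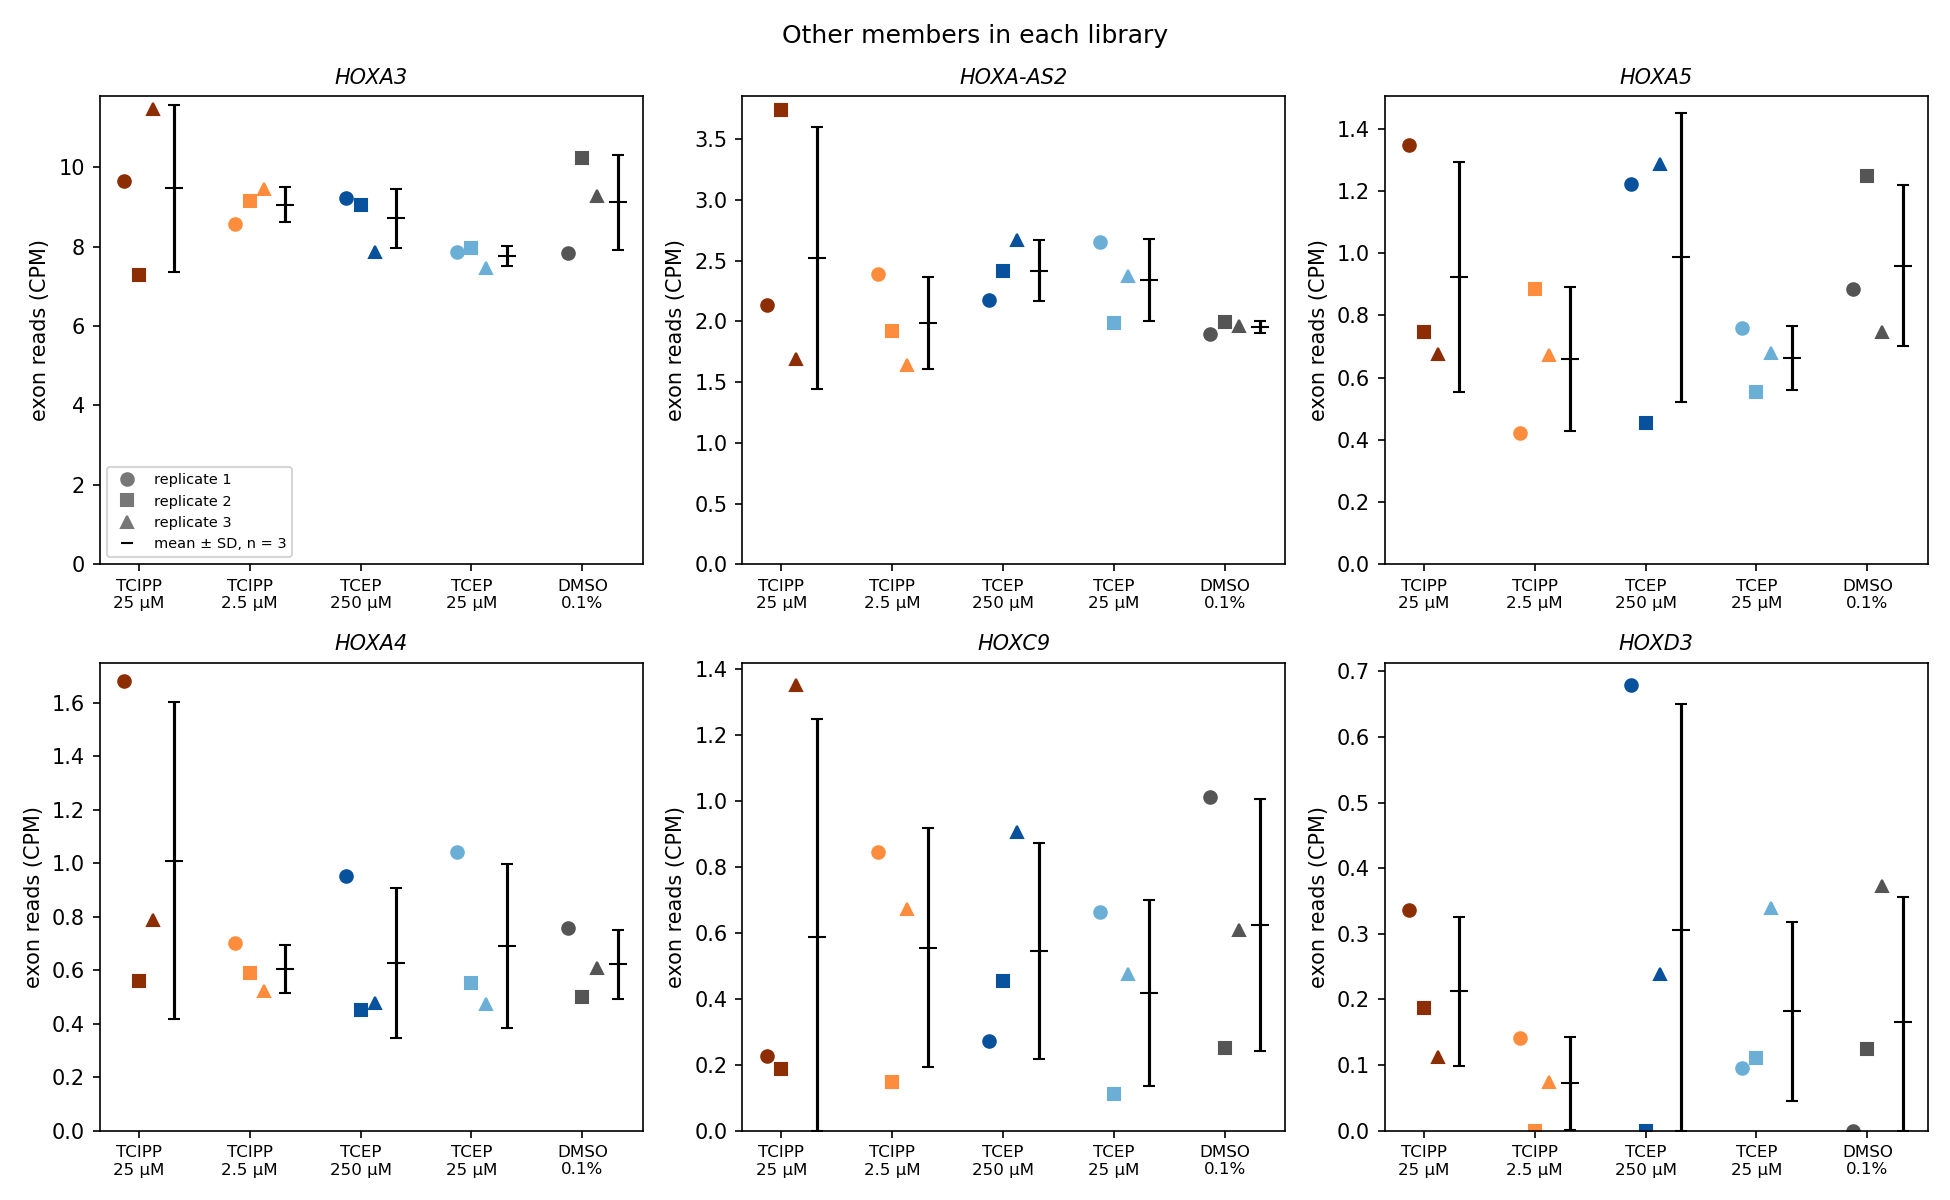
CPM of HOXA3, HOXA-AS2, HOXA5, HOXA4, HOXC9 and HOXD3 in each library, with the mean and SD of 3 libraries beside the points (bars stop at 0). HOXA-AS2 libraries with TCEP at 250 µM lie at 2.17 to 2.67 CPM, above DMSO at 1.90 to 2.00 CPM, and HOXA3 and HOXA5 overlap between the groups in all 7 comparisons.

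The members with reads that did not pass the low-count filter were 21. HOXA4 had 114 reads over the 15 libraries, of which 23.7% were unique, and reached at most 1.68 CPM, in a library with TCIPP at 25 µM. HOXC9, with most of the HOXC reads, had 102, of which 15 were unique, and at most 1.35 CPM. HOXC6, whose span covers HOXC9 and HOXC8, had 0 exon reads and 36 intron reads. HOXA2, of the anterior group, had 26 reads, all unique. HOXA7 had 24, HOXA-AS3 16, HOXA6 15, HOXA13 11, HOXA11 8, HOXA10 5, HOXA11-AS 4 and HOXA10-AS 1. In HOXC, HOXC8 had 9 reads with 0 unique, HOXC13 had 4, HOXC-AS1 2, and HOXC12 and HOXC13-AS 1 each. Of the HOXA and HOXC members named after HOXC9, none passed 0.603 CPM in any of the 15 libraries.

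Of the 14 HOXB members only HOXB7 had reads, 4 in all and in 3 libraries. The other 13, HOXB1, HOXB2, HOXB3, HOXB4, HOXB5, HOXB6, HOXB8, HOXB9, HOXB13, HOXB-AS1, HOXB-AS2, HOXB-AS3 and HOXB-AS4, had 0 in all 15 libraries, which allows up to 0.112 to 0.560 CPM per library. The same held for HOXA9, for HOXC5, HOXC6, HOXC10, HOXC11, HOXC-AS2 and HOXC-AS3, and for the 6 HOXD members at 0. These genes were not detectable at this depth in any of the 5 groups.

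Per length the order of levels was the same at its top in every group. HOXD-AS1 led with 23.9 ± 4.64 RPKM with TCIPP at 25 µM, 16.4 ± 3.45 with TCIPP at 2.5 µM, 21.4 ± 3.98 with TCEP at 250 µM, 16.1 ± 2.24 with TCEP at 25 µM and 22.8 ± 2.80 with DMSO (SD, n = 3 each). HOXD1 came next with 20.6 ± 8.37, 9.10 ± 4.26, 14.3 ± 5.27, 7.14 ± 1.97 and 18.4 ± 7.03 RPKM in the same groups. Both ranges overlapped within each group except with TCEP at 25 µM. HOXA3 followed at means of 1.66 to 2.00 RPKM, below HOXD1 and above the member after it with no overlap in each group. HOXA4, HOXA5, HOXA-AS2 and HOXC9 took the next places in changing order at means of 0.228 to 0.529 RPKM, and most neighbours among them overlapped.

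Among the DNA-binding partners of HOX proteins, the TALE family of PBX, MEIS and PKNOX factors, 5 of 9 passed the filter and 0 were called in either direction in any of the 7 comparisons, with or without the block. Their median log2 fold change against DMSO was -0.03 with TCIPP at 25 µM, -0.02 with TCIPP at 2.5 µM, -0.25 with TCEP at 250 µM and -0.05 with TCEP at 25 µM, where the median of all tested genes was between -0.0040 and 0.0017. PBX2 was the most abundant, at a median of 127 CPM. The smallest p-values were those of MEIS2 (-0.16, adjusted p = 0.932) and MEIS1 (0.22, 0.952) with TCIPP at 25 µM, PBX3 (-0.37, 0.387) and MEIS1 (0.09, 0.933) with TCIPP at 2.5 µM, PKNOX1 (-0.25, 0.958) and PBX3 (-0.33, 0.987) with TCEP at 250 µM, and PBX3 (-0.43, 0.273) and MEIS1 (0.37, 0.494) with TCEP at 25 µM, each as log2 fold change and adjusted p against DMSO.

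All 20 Polycomb genes on the list, which encode the complexes that silence HOX clusters, passed the filter and 0 were called without the block. CBX2, a chromodomain subunit that reads the Polycomb mark, averaged 54.5 ± 0.580 CPM with TCIPP at 25 µM, 74.9 ± 11.8 with TCIPP at 2.5 µM, 52.3 ± 2.36 with TCEP at 250 µM, 71.4 ± 5.82 with TCEP at 25 µM and 51.5 ± 5.36 with DMSO (SD, n = 3 each). It was thus highest in the 2 groups in which the HOXD pair was lowest. It was not alone in setting these groups apart, since KDM6A and ALDH1A1, from the lists below, averaged lowest in them. The log2 fold change of CBX2 was -0.40 between TCIPP and TCEP at 25 µM, -0.46 between the concentrations of TCIPP and -0.47 between those of TCEP (adjusted p = 0.0956, 0.191 and 0.479). With the block CBX2 fell in all 3 (-0.39, -0.45 and -0.46, adjusted p = 0.00758, 0.00428 and 0.00794). CBX2 was the only 1 of the 20 called with the block in each of these. That stands beside 8.75%, 3.85% and 1.47% of all tested genes. A link between CBX2 and the HOXD pair was not tested. Against DMSO its log2 fold change was 0.55 with TCIPP at 2.5 µM and 0.48 with TCEP at 25 µM (adjusted p = 0.05001 and 0.116), the first just outside the threshold. The other smallest p-values against DMSO were those of PHC2 (0.17, adjusted p = 0.741) and PHC1 (0.44, 0.767) with TCIPP at 25 µM, PHF19 (0.21, 0.369) with TCIPP at 2.5 µM, PHC2 (0.13, 0.987) and CBX8 (0.16, 0.987) with TCEP at 250 µM, and RNF2 (0.17, 0.459) with TCEP at 25 µM. The list's median log2 fold change against DMSO was 0.06, 0.05, 0.04 and 0.0074 in these groups in that order.

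Of 10 trithorax genes and their partners, which keep HOX genes active, 9 passed the filter and 0 were called without the block. With it, between TCIPP and TCEP at 25 µM, KDM6B, KMT2A and KDM6A rose by 0.42, 0.26 and 0.28 on the log2 scale (adjusted p = 0.0273, 0.0304 and 0.0308) and PSIP1 fell by 0.28 (adjusted p = 0.0403), and 0 of the 9 were called between the concentrations of either compound. These 4 of 9 stand beside 8.75% of all tested genes called in that fit, and the counts of 0 beside 3.85% for TCIPP and 1.47% for TCEP. KDM6A and KDM6B are demethylases that remove the Polycomb mark, and KMT2A is the methyltransferase that maintains HOX expression in blood cells. Against DMSO the smallest p-values were those of WDR5 (0.17, adjusted p = 0.792) and RBBP5 (-0.15, 0.861) with TCIPP at 25 µM, KDM6A (-0.34, 0.0828) and ASH2L (-0.22, 0.156) with TCIPP at 2.5 µM, KDM6A (-0.24, 0.852) and PSIP1 (0.25, 0.955) with TCEP at 250 µM, and KDM6A (-0.36, 0.116) and RBBP5 (-0.24, 0.215) with TCEP at 25 µM. The list's median log2 fold change was 0.01, 0.0038, -0.09 and -0.15 in these groups in that order.

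Of 20 genes of retinoic acid signalling and other upstream control, 10 passed the filter and 0 were called in any comparison without the block, or with it between treated groups. RARB and CYP26A1, which retinoic acid turns on in many cells, had 16 and 55 reads over the 15 libraries and did not pass. ALDH1A1, which makes retinoic acid, averaged 374 ± 58.5 CPM with TCIPP at 25 µM, 324 ± 50.9 with TCIPP at 2.5 µM, 388 ± 43.0 with TCEP at 250 µM, 337 ± 34.3 with TCEP at 25 µM and 461 ± 38.6 with DMSO (SD, n = 3 each). Its log2 fold change against DMSO was -0.31, -0.51, -0.26 and -0.45 in these groups in that order (adjusted p = 0.687, 0.0802, 0.955 and 0.136). DHRS3, a retinal reductase, had log2 fold changes of 0.34 with TCIPP at 25 µM, 0.33 with TCIPP at 2.5 µM and 0.34 with TCEP at 250 µM (adjusted p = 0.224, 0.0806 and 0.364). The list's median log2 fold change was 0.07, 0.02, -0.06 and -0.09 in these groups in that order.

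Of 22 neighbours in and at the ends of the clusters, 7 passed the filter and 0 were called without the block. The noncoding RNAs HOTAIRM1, HOTAIR and HOTTIP had 99, 1 and 1 reads, and EVX1 and EVX2, which close the HOXA and HOXD clusters, had 0. CBX5, the heterochromatin protein HP1 alpha beyond the HOXC cluster, had log2 fold changes against DMSO of 0.32 with TCIPP at 25 µM, 0.24 with TCIPP at 2.5 µM, 0.17 with TCEP at 250 µM and 0.34 with TCEP at 25 µM (adjusted p = 0.167, 0.123, 0.946 and 0.116). The other smallest p-values were those of HIBADH (-0.07, adjusted p = 0.952), MTX2 (-0.08, 0.784), CALCOCO1 (-0.16, 0.987) and SMUG1 (-0.12, 0.712) in the same 4 comparisons. The list's median log2 fold change was -0.0017, -0.04, 0.04 and -0.02.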

How the data were processed

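RNA of 15 HepG2 libraries was sequenced as paired-end 50-base reads from stranded poly-A libraries, per the labels' protocols. The series' design text names CLC Genomics Workbench as the authors' tool for mapping and counting, and the submitters' processing notes name the build hg19 (GRCh37). The deposited read counts per gene are, per the file headers, total and unique exon reads, intron reads and junction reads, and the authors also deposited RPKM values, which recomputation matched to exon reads per exon length and all gene reads. A deposited normalized expression signal was not used here. Where ends matched the annotation, 86.4% of deposited starts lay 1 base lower, so starts were moved to 1-based positions. The annotation gave strands and RefSeq the promoter windows.

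CPM is a library's exon reads of a gene scaled by its total exon reads. Tests used edgeR 4.0.16 (R 4.3.3, quasi-likelihood, TMM scaling, its low-count filter, all 15 libraries in 1 fit), which kept 12567 genes. Benjamini-Hochberg adjustment ran over these genes in each of 7 comparisons, with calls under 0.05. SE is the absolute log2 fold change over the root of F. The scripts were tested on simulated data. Alternatives were DESeq2 1.42.0, other scaling, filters and read types, left-out libraries and a replicate block. Same-numbered libraries were taken as paired where every correlation of their deviations over genes was over 0.1, which held between treated groups (0.168 to 0.284) and not with DMSO (lowest 0.0196 to 0.0934). Named in full are the called members and the 3 smallest p per comparison, and for other lists the 2 smallest p against DMSO, apart from 1 member and 1 listed gene that are not reported here. The members and lists were chosen with earlier results of these data known. Depth was 5.35 to 26.8 M exon reads. As the labels describe no molecular identifiers, floors and their limits reflect counting error alone.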

Additional observations from a re-analysis of the deposited data

How the results depend on the processing

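As designed, edgeR called 0 of the 5 tested HOX members in each of the 7 comparisons. The count became 2, HOXD1 and HOXD-AS1, with the block and likewise with no low-count filter, in each of TCEP 25 µM and TCIPP 2.5 µM against DMSO and the 3 comparisons between treated groups. With no filter 26 members were tested among 22008 genes, of which 618, 553, 756, 345 and 161 were called with TCEP at 25 µM and TCIPP at 2.5 µM against DMSO, between TCIPP and TCEP at 25 µM, and between the concentrations of TCIPP and of TCEP. With the block against DMSO, HOXD1 was at -1.38 with TCEP at 25 µM and -1.12 with TCIPP at 2.5 µM (log2, adjusted p = 1.23e-05 and 6.47e-05), and HOXD-AS1 at -0.51 and -0.50 (adjusted p = 2.24e-04 and 1.95e-04). The block called 8.25% and 7.49% of all tested genes there. Of the other lists it called against DMSO CBX2 (0.54 with TCIPP at 2.5 µM, adjusted p = 3.13e-04, and 0.48 with TCEP at 25 µM, 0.00105), CBX5 (0.32 with TCIPP at 25 µM, 0.24 with TCIPP at 2.5 µM and 0.34 with TCEP at 25 µM, adjusted p = 0.0433, 0.0260 and 0.00276), KDM6A (-0.34 with TCIPP at 2.5 µM and -0.36 with TCEP at 25 µM, adjusted p = 0.00678 and 0.00468), ASH2L (-0.22 with TCIPP at 2.5 µM, adjusted p = 0.0434) and PSIP1 (0.29 with TCEP at 25 µM, adjusted p = 0.0302). It also called ALDH1A1 lower in 3 of these 4 comparisons and DHRS3 higher in all 4. Of all tested genes, the block called 0.374% with TCIPP at 25 µM and 0.271% with TCEP at 250 µM against DMSO. The numbers did not pass the pairing check with DMSO. DESeq2 called 2 between TCIPP and TCEP at 25 µM, among 334 of 12567 genes. A fit on the compared groups alone called 1 of 4 tested members for TCEP at 25 µM against DMSO, among 135 of 12295 genes. Leaving out the libraries numbered 2 called 1 of 6 tested members there and with TCIPP at 2.5 µM, among 30 and 122 of 12684 genes. Leaving out 1 library at a time gave 0 to 1 called between TCIPP and TCEP at 25 µM, where the fit with 1 called 208 of 12728 genes. With the block plus another change, chosen after seeing the data, the count was 2 in the affected comparisons, except between the TCEP concentrations. There it was 1 without the libraries numbered 1 or 3 and 0 without those numbered 2. These exceptions came from fits that called 16 of 12633, 47 of 12447 and 7 of 12684 genes. Where the count was 2, the fits called from 78 of 12447 genes to 2096 of 12510. The cause was not tested.

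Mean RPKM with DMSO from unique reads was 28.7 for HOXD-AS1, 1.11 for HOXA3, 0.209 for HOXA-AS2 and 0.236 for HOXA5, against 22.8, 1.93, 0.358 and 0.512 from total reads. The values from unique reads were scaled to all unique exon reads, and those from total reads to all gene reads. The 2 sets therefore differ in scale, and a rise or fall between them is not a change in level. Of 624 alternative values of named fold changes, 20 reversed and 78 passed the threshold where the designed fit did not. With unique reads HOXA3 was at 0.11 with TCEP at 250 µM (0.098 with the block) and 0.0012 with TCEP at 25 µM (0.022), against DMSO. With TCIPP at 25 µM against DMSO, HOXD1 ranged from -0.16 to 0.41 over left-out libraries and was -0.068 without the numbers 1 (-0.035 with the block). There HOXA3 ranged from -0.076 to 0.20, and was -0.011 without the numbers 1 (-0.0015) and -0.063 without the numbers 3 (-0.055). HOXA-AS2 ranged from -0.04 to 0.53, and was -0.040 with total gene reads and -0.037 without the numbers 2 (-0.060). HOXA5 between the TCIPP concentrations was -0.067 without the numbers 1 (-0.054). The cause was not tested. HOXA4, HOXC9 and rarer members have too few reads here for a test.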
